A study of Mus musculus with 9 samples.

Results

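The genes described here encode the enzymes of glycolysis and the citric acid cycle in mouse hippocampus, with lactate dehydrogenase, the mitochondrial pyruvate carrier, the pyruvate dehydrogenase complex and its kinases. They were taken by symbol from the deposited gene table, which held all 38 of them among 57010 genes. Aldoa had 2 entries there, and the main one is used below, because the second stood at 0.153 to 0.919 CPM (counts scaled by library size). All 38 were kept by the filter on low counts that left 17967 genes for testing.

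The study measured messenger RNA in the hippocampus of C57BL/6J mice in 3 groups of 3 libraries, all after surgery at the L5 spinal nerve. In the sham group the nerve was identified and not tied, and solvent was given. In the SNL group (spinal nerve ligation, a model of neuropathic pain) the nerve was tied and solvent was given. In the CBD group the nerve was tied and cannabidiol, a non-intoxicating cannabinoid, was injected intraperitoneally at 5 mg/kg for 15 days. The labels used here give neither the age nor the sex of the mice, and leave unsaid whether each library is its own animal. The p-values below therefore measure only the spread between these libraries, which may be technical. None of the groups analysed here had cannabidiol without ligation.

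Glycolysis splits glucose into pyruvate in the cytosol, and lactate dehydrogenase interconverts pyruvate and lactate. Pyruvate enters mitochondria through its carrier, is turned into acetyl-CoA by the pyruvate dehydrogenase complex, and is oxidised in the citric acid cycle. Neurons take most of their energy from this oxidation, while astrocytes are known for glycolysis and for release of lactate.

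Library totals ran from 16972620 to 20470546 expected counts. Markers of CA1, dentate gyrus and CA3, the principal hippocampal fields, were present in every library, with summed levels of 423 to 1085, 300.1 to 573 and 432 to 637 CPM. Summed levels of markers of neighbouring regions and other cell types differed between libraries. Summed levels of 8 thalamus and habenula markers were 345 to 458 CPM in sham, 549.7 to 1442 in SNL and 524 to 751 in CBD, with the highest value in SNL 2. Endothelial and pericyte markers summed to 373 to 433, 505 to 655 and 479.5 to 502 CPM in the same order. Myelin markers summed to 8886 to 11988, 10697 to 15174 and 8411 to 9839 CPM. Hypothalamic markers stood at 6.57 to 7.83 CPM in sham, 7.69 to 297 in SNL and 6.6 to 378 in CBD. Of these 8, Pmch was above 10 CPM in SNL 1, SNL 2 and CBD 1, and Hcrt, Agrp and Oxt were at 0 in at least 1 library. In bulk tissue, fewer cells of a type and less RNA per cell cannot be told apart.

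In 3 of the genes the SNL libraries stood above all 6 others and the unadjusted p of SNL against sham was below 0.05: Ldhb, Suclg1 and Mpc1. Every SNL library stood above every sham library in 7.93% of all genes, and the share meeting both conditions was not counted. With each library's trends over GC content and transcript length taken off, as described further on, the SNL and sham libraries of Ldhb, Suclg1 and Mpc1 overlapped. Their upstream sequences are printed because these genes showed the same order of groups. Each is the 250 bases before the annotated start, read 5′ to 3′ on the gene's strand from RefSeq on build GRCm38.p6. Capitals mark matches, on either strand, to ACGTG (the core of the site bound by hypoxia-inducible factors), AGGTCA (a nuclear receptor motif) or GGGCGG (a GC box). RefSeq places the Ldhb sequence at chr6:142507958-142508207 on the minus strand, Suclg1 at chr6:73248255-73248504 on the plus strand and Mpc1 at chr17:8283537-8283786 on the plus strand.
Ldhb: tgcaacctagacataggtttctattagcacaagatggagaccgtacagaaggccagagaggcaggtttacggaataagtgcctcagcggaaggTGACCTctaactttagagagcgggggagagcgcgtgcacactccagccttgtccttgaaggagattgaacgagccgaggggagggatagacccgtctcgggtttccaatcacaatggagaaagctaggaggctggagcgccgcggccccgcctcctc
Suclg1: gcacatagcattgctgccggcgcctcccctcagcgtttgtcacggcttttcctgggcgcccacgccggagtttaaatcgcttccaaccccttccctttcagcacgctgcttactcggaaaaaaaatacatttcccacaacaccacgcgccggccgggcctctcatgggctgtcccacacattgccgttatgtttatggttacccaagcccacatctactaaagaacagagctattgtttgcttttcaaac
Mpc1: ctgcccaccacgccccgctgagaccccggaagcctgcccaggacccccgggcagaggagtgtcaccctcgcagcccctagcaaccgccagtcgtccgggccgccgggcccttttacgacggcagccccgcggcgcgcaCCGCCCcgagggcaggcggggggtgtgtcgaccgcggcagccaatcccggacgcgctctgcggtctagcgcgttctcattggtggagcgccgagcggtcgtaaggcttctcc

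The Ldhb sequence held 1 match, to AGGTCA, the Mpc1 sequence held 1 match, to GGGCGG, and the Suclg1 sequence held none of the 3 motifs. A second annotated Mpc1 start, with its window at chr17:8284204-8284453 on the plus strand, is not printed and held 1 match to AGGTCA and 1 to GGGCGG. In 250-base windows of all 32851 RefSeq mouse promoters in the table, ACGTG was present in 16.6%, AGGTCA in 14.0% and GGGCGG in 32.7%. In the 55 promoters of the 37 listed genes with an entry, the shares were 34.5%, 16.4% and 49.1%. The dinucleotide CG occurred 14 times in the Ldhb window, 15 times in Suclg1 and 32 times in Mpc1, against a median of 6 over all promoters and 15 over those of the listed genes. A match is only a run of letters and does not show that a factor binds.

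Levels between genes are compared per kilobase of the longest coding transcript, as means over the 9 libraries. Gapdh, the glyceraldehyde-3-phosphate dehydrogenase, was highest at 888 CPM per kilobase, followed by the aldolase Aldoa at 816 and the pyruvate kinase Pkm at 608. Hk2, the hexokinase best known from muscle and tumours, was lowest at 1.15 CPM per kilobase, against 94.4 for Hk1, the main brain hexokinase. Among phosphofructokinases, which catalyse the committed step, Pfkm stood at 149, Pfkp at 68.5 and Pfkl at 54.4 CPM per kilobase. The enolases Eno1 and Eno2, the second of which marks neurons, stood at 410.1 and 257. Ldhb, the subunit of the heart-type enzyme, stood at 318 CPM per kilobase and Ldha, the muscle-type subunit, at 103.

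Among mitochondrial components, the subunits of the pyruvate dehydrogenase core, Pdha1 and Pdhb, were close together at 75.9 and 79.6 CPM per kilobase. Its acetyltransferase Dlat stood at 24.5 and Dld, the dehydrogenase shared with the oxoglutarate complex, at 44.8. Of the kinases that inactivate the complex, Pdk2 stood at 39.2, Pdk1 at 8.99 and Pdk4 at 2.93 CPM per kilobase. Succinyl-CoA ligase pairs its alpha subunit Suclg1 with an ADP-forming beta subunit, Sucla2, or a GDP-forming one, Suclg2. These stood at 58.2, 61.4 and 6.40 CPM per kilobase. The cytosolic malate dehydrogenase Mdh1 stood at 287 and the mitochondrial Mdh2 at 166.

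**Figure D1:**
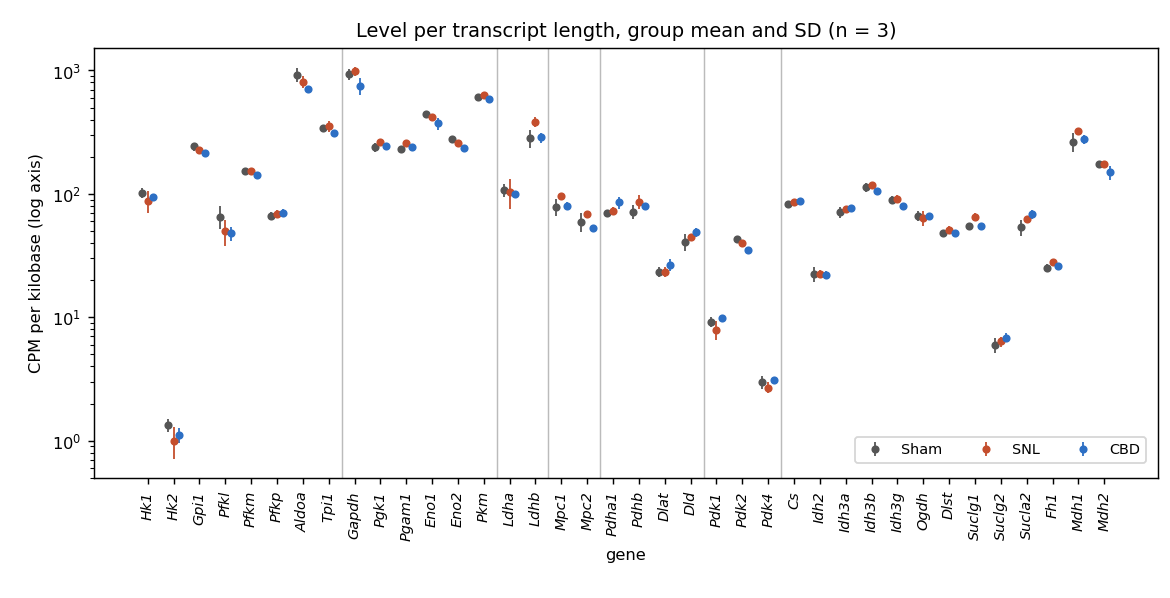
Level of each of the 38 genes in CPM per kilobase of transcript on a log axis, by group; points are means and bars are SD over 3 libraries, and grey lines part the roles, from upper glycolysis on the left to the citric acid cycle on the right. Levels ran from 1.15 for Hk2 to 888 for Gapdh as means over 9 libraries, and the 3 group means of a gene lay close together on this scale.

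These levels varied little between libraries. The coefficient of variation over the 9 libraries, in CPM, was lowest for citrate synthase (Cs), which opens the cycle, at 3.57%, and highest for Pfkl at 23.5%. The ratio of the highest library to the lowest was 1.12 for Cs, 1.90 for Pfkl and 2.02 for Hk2. In each comparison the fitted change was within 1.5-fold for all 38 genes and within 1.25-fold for 35. Together the 38 genes took 1.29% ± 0.026 of the counts in sham (mean ± SD, n = 3), 1.33% ± 0.0541 in SNL and 1.20% ± 0.0808 in CBD. CBD 3 had the lowest share, 1.12%, and SNL 3 the highest, 1.40%.

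**Figure D2:**
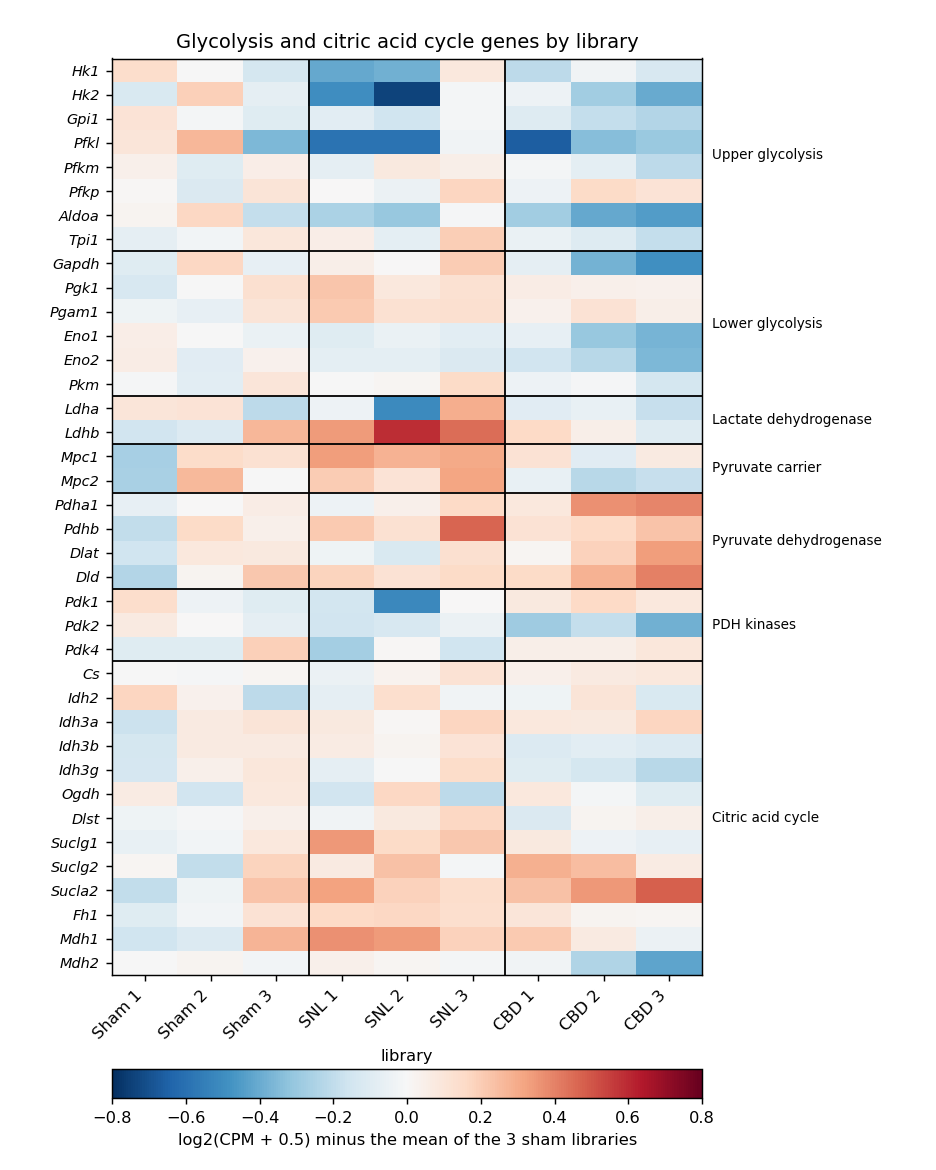
Each cell is log2(CPM + 0.5) of a gene in a library minus the mean of the 3 sham libraries, with red above and blue below sham. Ldhb is red in all SNL libraries, the pyruvate dehydrogenase genes are red in CBD 2 and CBD 3, and Gapdh, Aldoa and Mdh2 are blue in the same CBD libraries.

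SNL against sham asks what ligation was accompanied by in solvent-treated mice. None of the 38 genes passed an adjusted p under 0.05 in edgeR's quasi-likelihood test, where 0.0% of all tested genes did. At an unadjusted p under 0.05, 3 were higher (5.83% of all genes were) and 0 were lower (7.96%). The DESeq2 Wald test called 0 of the 38, against 2.02% of all genes, and limma voom called 0, against 0.00557%. Of the 38, 25 were higher and 13 lower in SNL. Their median log2 fold change was 0.05, within a range of -0.42 to 0.45. Over all tested genes the median was 0.01 and 51.6% were higher. Every SNL library stood above every sham library for 5 genes (Pgam1, Ldhb, Mpc1, Suclg1 and Fh1), against 7.93% of all genes, and below for Eno1, against 9.82%.

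Ldhb had the smallest p. It stood at 327, 337 and 437 CPM in Sham 1 to 3, at 462, 549.6 and 496 in SNL 1 to 3, and at 407, 376 and 339 in CBD 1 to 3. The SNL libraries were above all others, although Sham 3 came close to SNL 1. SNL over sham gave a log2 fold change of 0.45 (SE 0.137, edgeR adjusted p = 0.243). Its partner Ldha stood at 195 ± 23.6 CPM in sham, 187 ± 50.8 in SNL and 179 ± 8.01 in CBD, with the lowest library, SNL 2, at 136 (mean ± SD, n = 3).

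Both carrier subunits had higher means in SNL. Mpc1 stood at 62.3, 83.1 and 81.6 CPM in the sham libraries, 94.9, 91.0 and 92.6 in SNL, and 81.5, 70.6 and 79.0 in CBD. The 3 SNL values lay within a narrow band above the rest, and Sham 1 was the lowest of all. Against sham the log2 fold change was 0.29 (SE 0.12, edgeR adjusted p = 0.319). Mpc2 stood at 50.4, 72.3 and 60.2 CPM in sham, 69.6, 65.2 and 75.2 in SNL, and 58.0, 51.6 and 52.9 in CBD. Here sham and SNL overlapped, with a log2 fold change of 0.20.

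In the citric acid cycle 12 of 13 genes had a positive fold change, with a median log2 value of 0.08, and Ogdh was the exception at -0.06. With each library's trends over GC content and transcript length taken off, as described further on, 10 of 13 were positive and the median was 0.06. Suclg1 stood at 80.1, 82.2 and 88.5 CPM in sham, 106, 93.1 and 97.1 in SNL, and 88.2, 81.1 and 79.8 in CBD. The lowest SNL library was above the highest library of either other group. Its log2 fold change over sham was 0.24 (SE 0.0939, edgeR adjusted p = 0.306). Mdh1 stood at 495, 513 and 670.1 CPM in sham, 714, 702 and 629 in SNL, and 640.4, 584 and 536 in CBD. Sham 3 lay inside the SNL range, and the log2 fold change was 0.28 (SE 0.136, edgeR adjusted p = 0.386).

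The other cycle genes moved by smaller amounts. Fumarase (Fh1) stood at 66.7 ± 5.11 CPM in sham, 74.2 ± 0.886 in SNL and 68.7 ± 2.14 in CBD, with all SNL libraries above the others. Mdh2 was at 253 ± 4.04, 256 ± 4.84 and 217 ± 29.6 in the same order. Cs was at 244 ± 2.22, 249.8 ± 14.2 and 256 ± 3.69. The NAD-dependent isocitrate dehydrogenase subunits differed little in mean between sham and SNL, with Idh3a at 184 ± 18.8, 195 ± 11.0 and 198 ± 7.28 in sham, SNL and CBD. Idh3b was at 184 ± 15.3, 192 ± 5.84 and 171 ± 1.77, and Idh3g at 119 ± 9.53, 121 ± 9.60 and 107 ± 4.75. Idh2, the NADP-dependent mitochondrial enzyme, was at 39.2 ± 5.21, 39.4 ± 3.03 and 38.6 ± 3.11. The oxoglutarate dehydrogenase genes Ogdh (275 ± 24.4, 264 ± 38.3 and 273 ± 17.2) and Dlst (134 ± 3.60, 141 ± 9.74 and 133 ± 8.02) overlapped in all groups. Suclg2 was at 20.1 ± 2.67, 21.5 ± 1.99 and 23.1 ± 1.88 CPM.

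In upper glycolysis, from hexokinase to triose phosphate isomerase, 3 of 8 genes were higher in SNL (median log2 fold change -0.14). Pfkl stood at 257, 289 and 187 CPM in sham, 159.7, 159 and 236 in SNL, and 152, 189.7 and 196 in CBD. SNL 3 lay inside the sham range while SNL 1 and SNL 2 lay below it. SNL gave a log2 fold change of -0.40 over sham (SE 0.198, edgeR adjusted p = 0.397), and it was -0.04 without SNL 1, SNL 2 and CBD 1, the libraries with Pmch above 10 CPM. Hk1 showed the same split, with 328, 334 and 461 CPM in SNL 1 to 3 and a sham mean of 437 ± 42.1. Hk2 was at 7.39 ± 0.951 CPM in sham, 5.51 ± 1.58 in SNL and 6.18 ± 0.868 in CBD.

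Lower glycolysis, from Gapdh to pyruvate kinase, had 4 of 6 genes higher in SNL (median log2 fold change 0.07). The phosphoglycerate mutase Pgam1 stood at 409 ± 25.6 CPM in sham, 455 ± 16.0 in SNL and 428 ± 13.6 in CBD, with SNL above sham in every library. The phosphoglycerate kinase Pgk1 was at 434 ± 38.4, 479 ± 23.8 and 446 ± 3.93, and Pkm at 1481 ± 96.5, 1538 ± 93.4 and 1418 ± 65.5. In pyruvate dehydrogenase, Pdhb stood at 94.3, 120.4 and 111 CPM in sham, 125, 118 and 149 in SNL, and 117, 121 and 127 in CBD. SNL 2 lay inside the sham range, and the log2 fold change was 0.27 (SE 0.123, edgeR adjusted p = 0.374). All 3 listed kinase genes had negative values, with log2 fold changes of -0.21 for Pdk1, -0.11 for Pdk2 and -0.15 for Pdk4. Pdk3, which is not among the 38, had -0.10.

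The markers named above moved with this comparison. All 8 thalamus and habenula markers, all 8 endothelial and pericyte markers and all 8 myelin markers had positive fold changes in SNL over sham, with median log2 values of 1.08, 0.52 and 0.32. All 7 hypothalamic markers kept by the filter were also higher, with a median of 3.27. The 6 CA1 markers were all lower, with a median of -0.62. Of the 7 dentate gyrus markers, 6 were lower and 1 higher, with a median of -0.47. Of the 6 CA3 and mossy cell markers, 5 were lower and 1 higher, with a median of -0.50. Their part in the values of the metabolic genes was not tested. Without the libraries with Pmch above 10 CPM, which leaves SNL 3 as the lone SNL library, Ldhb had a log2 fold change of 0.44, Suclg1 of 0.23 and Mpc1 of 0.30, and 26 of the 38 genes were higher.

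**Figure D3:**
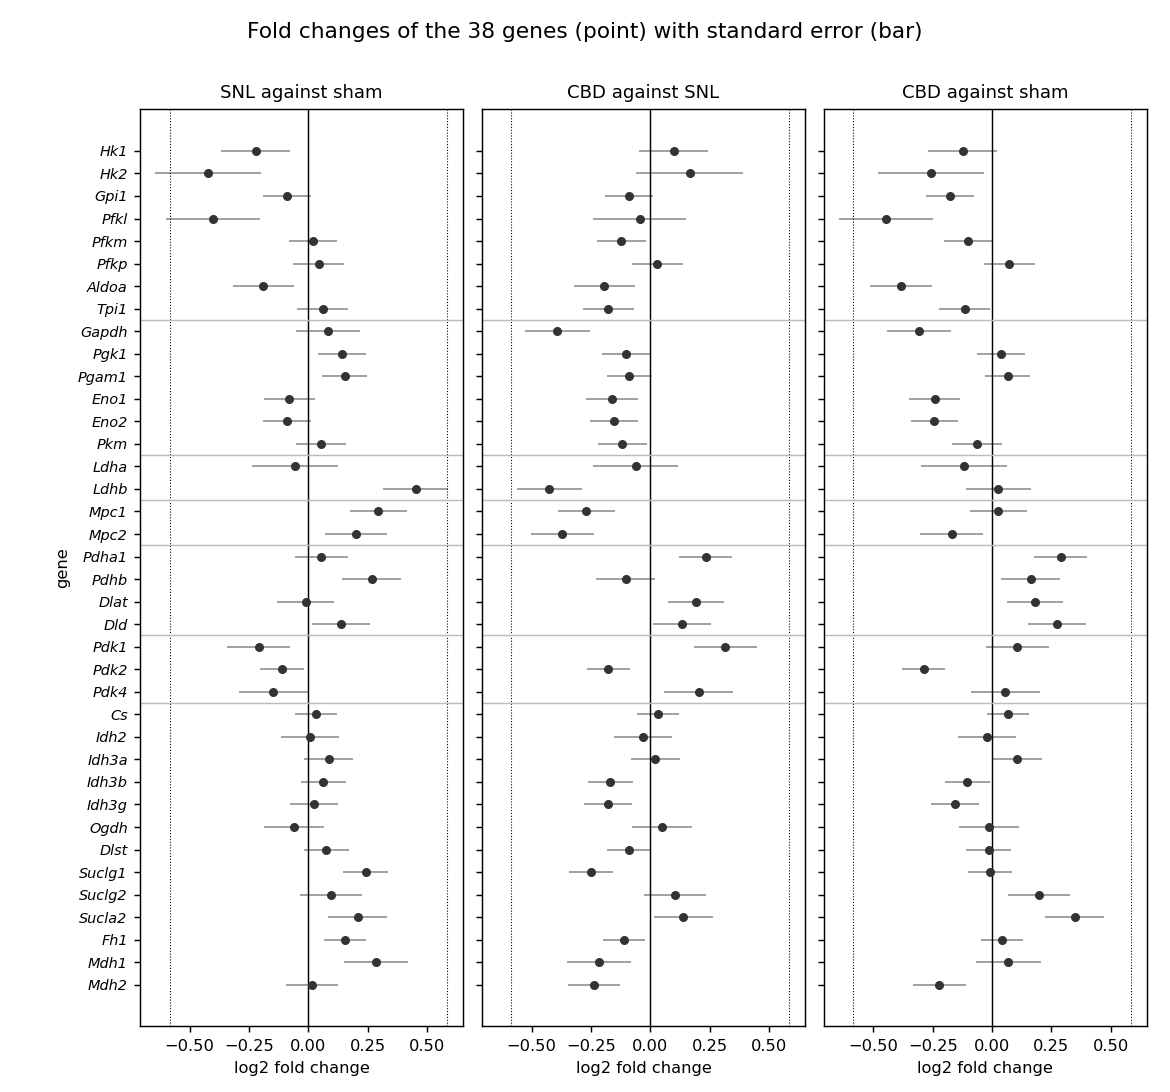
Points are log2 fold changes of the 38 genes in each comparison and bars are standard errors from the edgeR fit; dotted lines mark 1.5-fold and grey lines part the roles. All points lie between the dotted lines. In CBD against SNL the 6 genes of lower glycolysis are left of 0 (3 of them with the trends over GC content and length taken off), and in CBD against sham the 4 pyruvate dehydrogenase genes are right of it.

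CBD against SNL asks what accompanied cannabidiol in ligated mice. It shares the SNL libraries with the first comparison, so a gene high in SNL is placed above sham and above CBD by the same values. None of the 38 genes passed in edgeR, where 0.0% of all tested genes did. At an unadjusted p under 0.05, 1 was higher (6.5% of all genes) and 5 were lower (7.2%). DESeq2 called 0 of the 38, against 0.868% of all genes. Limma voom called 4 as lower in CBD (Ldhb, Gapdh, Mpc2 and Suclg1), against 6.3% of all genes called in either direction. Of the 38, 13 were higher and 25 lower in CBD, with a median log2 fold change of -0.10, a range of -0.43 to 0.32, and -0.001 as the median over all genes, of which 49.9% were higher. Every CBD library stood below every SNL library for 14 of the 38, against 10.1% of all genes, and above for Pdk1 and Pdk4, against 9.18%.

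All 6 genes of lower glycolysis had negative values in CBD against SNL, the median log2 fold change being -0.13. For 5 of them every CBD library stood below every SNL library, against 10.1% of all genes. With the trends over GC content and length taken off, the groups overlapped for these 5 genes. Of the 6, 3 were then positive (Eno1, Pgam1 and Pkm) and the median was 0.01. Gapdh stood at 1229, 1472 and 1257 CPM in sham, 1357, 1318 and 1517 in SNL, and 1249, 1012 and 936 in CBD. CBD 1 lay within the sham range and the other CBD libraries below every other library. Its log2 fold change was -0.39 (SE 0.136, edgeR adjusted p = 0.312). Eno1 was the gene with overlap, at 893 ± 32.6 CPM in sham, 845 ± 13.3 in SNL and 755 ± 86.4 in CBD. Reads of Eno1 may be shared with its near-identical copy Eno1b, which stood at 0 to 5.10 CPM.

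Among lactate and pyruvate genes, Ldhb had a log2 fold change of -0.43 in CBD over SNL (SE 0.137, edgeR adjusted p = 0.306), Mpc2 of -0.37 (SE 0.132, edgeR adjusted p = 0.313) and Mpc1 of -0.27 (SE 0.12, edgeR adjusted p = 0.361). For these 3 genes the CBD and SNL libraries did not overlap. CBD means lay close to sham for Ldhb (374 ± 34.1 against 367 ± 60.6 CPM) and for Mpc1 (77.0 ± 5.72 against 75.7 ± 11.6). Suclg1 had a log2 fold change of -0.25 (SE 0.094, edgeR adjusted p = 0.321), with a CBD mean of 83.0 ± 4.51 CPM against 83.6 ± 4.40 in sham. In the cycle as a whole 5 of 13 genes were higher in CBD than in SNL, with a median of -0.09.

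The kinases were split. Pdk1 stood at 52.3, 46.2 and 44.3 CPM in sham, 42.8, 33.1 and 47.5 in SNL, and 50.2, 53.1 and 50.3 in CBD. The CBD libraries were above all SNL libraries and within or just above the sham range, and SNL 2 was lowest of all. CBD gave 0.32 over SNL on the log2 scale (SE 0.134, edgeR adjusted p = 0.346), and it was 0.12 without the libraries with Pmch above 10 CPM. Pdk4, the kinase induced in fasting, was at 10.4 ± 1.30 CPM in sham, 9.40 ± 0.982 in SNL and 10.8 ± 0.194 in CBD. Pdk2 had a log2 fold change of -0.18 in the same comparison, with all CBD libraries below all SNL libraries.

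All 8 myelin markers and all 8 endothelial and pericyte markers had negative fold changes in CBD over SNL, with median log2 values of -0.49 and -0.22. So did 7 of 8 thalamus and habenula markers, with -0.37, and 7 of 8 microglial markers, with -0.22. Choroid plexus markers went the other way, with 7 of 8 higher and a median of 0.41. The part of these markers in the values of the metabolic genes was not tested. Without SNL 1, SNL 2 and CBD 1, 9 of the 38 genes were higher, and the log2 fold changes were -0.47 for Ldhb, -0.64 for Gapdh, -0.52 for Mpc2 and -0.27 for Suclg1.

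CBD against sham sets ligation plus cannabidiol beside sham surgery plus solvent, and shares libraries with both other comparisons. None of the 38 genes passed in edgeR, where 0.0% of all tested genes did. At an unadjusted p under 0.05, 3 were higher (7.41% of all genes) and 6 lower (8.87%). DESeq2 called 0 of the 38, against 2.11% of all genes. Limma voom called Pdha1 as higher and Aldoa and Gapdh as lower, against 5.85% of all genes. Of the 38, 17 were higher and 21 lower in CBD, with a median log2 fold change of -0.01 and a range of -0.45 to 0.35, beside 0.001 and 50.1% higher over all genes. Every CBD library stood above every sham library for Cs, Pdha1 and Sucla2, against 10.6% of all genes, and below for Aldoa, Eno1, Eno2, Gpi1, Mdh2 and Pdk2, against 11.1%.

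The 4 pyruvate dehydrogenase genes all had positive values, with a median log2 fold change of 0.23, or 0.10 with the trends taken off, where all 4 were still positive. Pdha1, the catalytic alpha subunit that the kinases phosphorylate, stood at 190.2, 199.6 and 207 CPM in sham, 193, 205 and 222 in SNL, and 211, 257 and 261 in CBD. CBD 1 was only just above the highest sham library, while CBD 2 and CBD 3 were above every other library. The log2 fold change was 0.29 (SE 0.111, edgeR adjusted p = 0.253). Dld was at 103 ± 16.0 CPM in sham, 114 ± 2.55 in SNL and 125 ± 11.0 in CBD, and Dlat at 94.7 ± 8.92, 93.9 ± 8.36 and 107 ± 11.9, each with overlap. Pdk2, the main kinase gene here by level, stood at 101, 96.3 and 91.3 CPM in sham, 86.5, 87.8 and 92.9 in SNL, and 78.8, 84.1 and 73.4 in CBD. Its CBD libraries were the lowest of all 9, with a log2 fold change of -0.29 over sham (SE 0.0918, edgeR adjusted p = 0.217).

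Glycolysis genes mostly had negative values, 7 of 8 in the upper part and 4 of 6 in the lower part, with median log2 fold changes of -0.15 in both. With the trends taken off, 5 of 8 and 3 of 6 were negative, with medians of -0.03 and 0.01. Aldoa stood at 1447, 1604 and 1253 CPM in sham, 1198, 1155 and 1419 in SNL, and 1179, 1075 and 1046 in CBD. The CBD libraries were below all sham libraries, and SNL spanned the gap between them. Against sham this gave a log2 fold change of -0.38 (SE 0.129, edgeR adjusted p = 0.223). Eno2 stood at 806, 726 and 793 CPM in sham, 733, 734 and 714 in SNL, and 697, 664 and 603 in CBD, so that CBD was lowest without overlap. Its log2 fold change was -0.24 (SE 0.1, edgeR adjusted p = 0.279), and that of Gapdh was -0.31 (SE 0.136, edgeR adjusted p = 0.298). The glucose-6-phosphate isomerase Gpi1 was at 699 ± 51.3 CPM in sham, 657 ± 32.9 in SNL and 618 ± 28.2 in CBD.

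Other upper glycolysis genes overlapped between CBD and sham. Among them Pfkl had the lowest log2 fold change of the 38, -0.45 (SE 0.198, edgeR adjusted p = 0.299), or -0.24 with the trends taken off. Hk1 was at 401 ± 25.8 CPM in CBD, Pfkm at 438 ± 25.2 in sham, 444 ± 24.0 in SNL and 408 ± 27.9 in CBD. Pfkp, at 276 ± 20.9, 285 ± 22.4 and 291 ± 19.9 in the same order, was the upper glycolysis gene with a positive value in CBD against sham. The triose phosphate isomerase Tpi1 was at 545 ± 31.1, 569 ± 54.5 and 503 ± 24.9. In the cycle, Sucla2 stood at 104, 116 and 139 CPM in sham, 149, 135 and 131 in SNL, and 139.7, 152 and 166 in CBD. CBD 1 was barely above Sham 3, and CBD 3 was the highest library. The log2 fold change was 0.35 (SE 0.125, edgeR adjusted p = 0.237).

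Markers of other regions and cell types also differed between CBD and sham. All 8 thalamus and habenula markers and all 8 choroid plexus markers had positive fold changes, each with a median log2 value of 0.62, and 7 of 8 endothelial and pericyte markers did, with 0.23. Of the 8 microglial markers, 7 had negative values, with a median of -0.23. All 7 hypothalamic markers kept by the filter were higher, with a median of 6.88, and summed levels of 378, 6.60 and 6.77 CPM in CBD 1 to 3. Of the 6 CA1 markers, 5 were lower and 1 higher, with a median of -0.41. Choroid plexus markers summed to 139.7 to 1316, 264 to 2213 and 1146 to 1887 CPM, and microglial markers to 359 to 443, 336 to 422 and 311 to 367 CPM, in sham, SNL and CBD. Of 10 neuronal markers, 6, 4 and 5 were higher in SNL against sham, CBD against SNL and CBD against sham. Of 8 astrocyte markers, 5, 4 and 4 were higher in the same order. The part of all these markers in the values of the metabolic genes was not tested. Without SNL 1, SNL 2 and CBD 1, 16 of the 38 genes were higher in CBD than in sham, and the log2 fold changes were 0.39 for Pdha1, 0.42 for Sucla2, -0.43 for Aldoa and -0.28 for Pdk2.

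**Figure D4:**
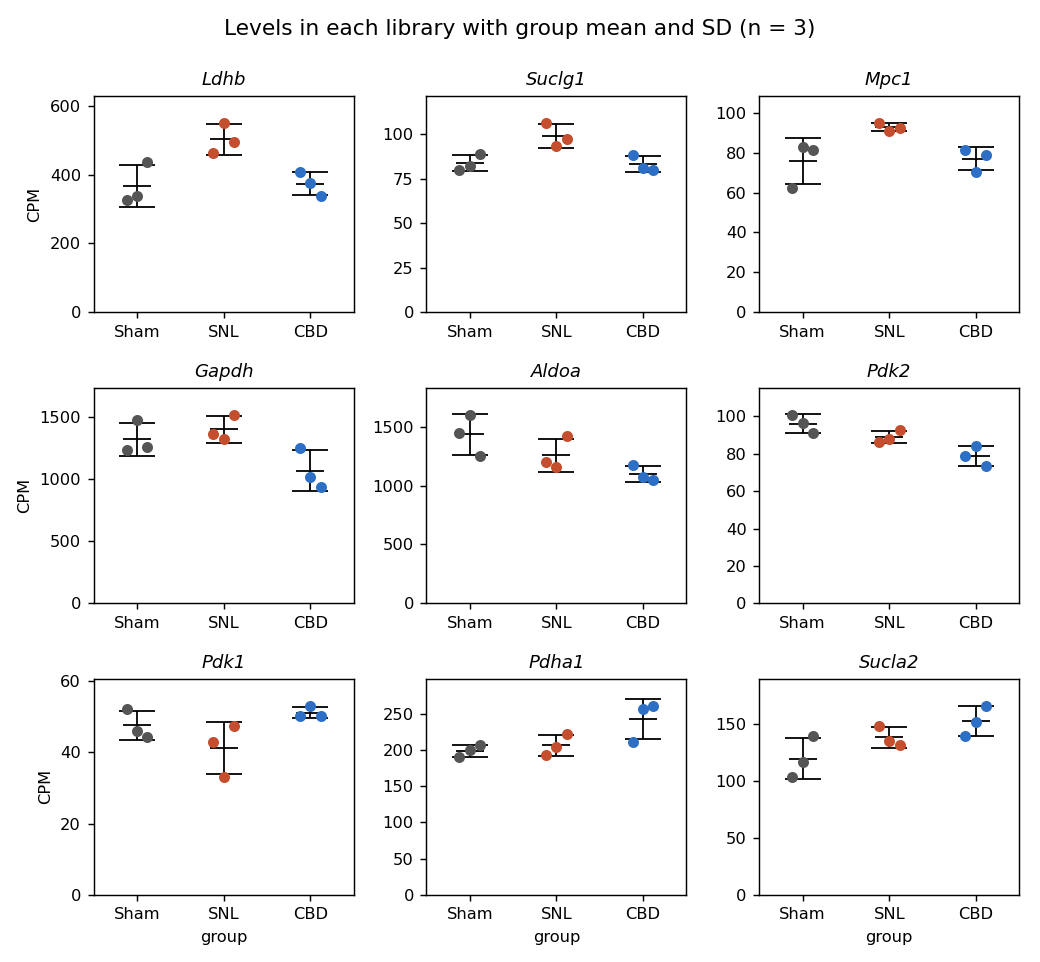
CPM in each library for 9 genes (points, in replicate order from left to right within a group) with the group mean and SD over 3 libraries. Ldhb, Suclg1 and Mpc1 are highest in SNL, Pdk2 is lowest in CBD, and Pdha1 and Gapdh have CBD 1 nearer to the other groups than CBD 2 and CBD 3.

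Over the 3 groups, 5 genes had SNL above both other groups without overlap (Pgam1, Ldhb, Mpc1, Suclg1 and Fh1), 3 had CBD below both (Eno2, Pdk2 and Mdh2), Eno1 had sham above both, and 29 had no such order. The comparisons behind these orders share libraries, so they are not separate evidence. How often these orders occur over all tested genes was not counted.

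Isozymes that carry out the same reaction were compared as log2 ratios within a library, which do not move with library scaling. For 8 ratios and 3 comparisons, 24 exact two-sided permutation tests were run, and with 3 libraries a group none can give a p below 0.1. Ldhb over Ldha was 1.58, 1.61 and 2.60 in Sham 1 to 3, 2.45, 4.03 and 2.08 in SNL, and 2.23, 2.02 and 1.98 in CBD, as linear ratios of CPM + 0.5. SNL 2 stood apart and the groups overlapped. The mean log2 ratio was higher in SNL than in sham by 0.55 (exact permutation p = 0.3), and by 0.27 without SNL 2. For CBD against SNL the difference was -0.40 (exact permutation p = 0.2), and by -0.12 without SNL 2.

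Pdk4 over Pdk2 was the ratio that reached the smallest possible p. It was 0.1002, 0.105 and 0.135 in sham, 0.104, 0.124 and 0.104 in SNL, and 0.141, 0.133 and 0.156 in CBD, again as linear ratios of CPM + 0.5. All CBD libraries were above all SNL libraries, with a difference in mean log2 ratio of 0.38 (exact permutation p = 0.1, adjusted over the 24 tests 0.8). Transcript GC content differs within this pair, at 44.9% for Pdk4 and 56.9% for Pdk2. In CBD against SNL their log2 fold changes were 0.20 and -0.18. With the trends over GC content and length taken off they were 0.08 and 0.02. The ratio itself was not tested with the trends taken off. Eno2 over Eno1 differed least, with log2 differences of -0.01, 0.01 and 0.003 in SNL against sham, CBD against SNL and CBD against sham. The adjusted p was 0.8 or above for all 24.

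The fold changes of the 38 genes followed the GC content of their transcripts. Spearman's rho between log2 fold change and GC content across the 38 genes was -0.43 for SNL against sham, -0.49 for CBD against SNL and -0.86 for CBD against sham. Across all 17642 tested genes with a transcript it was -0.15, -0.45 and -0.57. Genes share libraries and are not independent replicates, so these values are a description. In CBD against sham, 2 of the 19 genes above the median GC content of 51.9% were higher, with a median log2 fold change of -0.16. Of the 19 below it 15 were higher, with a median of 0.07. For CBD against SNL the counts were 2 of 19 and 11 of 19. Pdha1 (45.5% GC), Dld (40.6%) and Sucla2 (43.2%) lay at the low end, and Aldoa (56.9%), Gapdh (56.6%), Pfkl (57.1%) and Pdk2 (56.9%) at the high end.

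**Figure D5:**
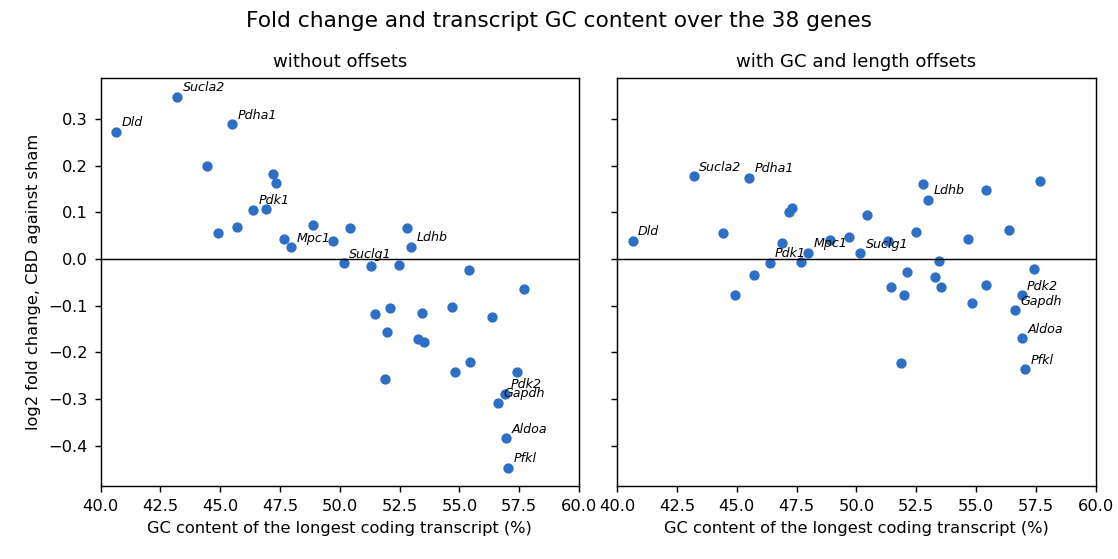
Log2 fold change of CBD against sham for the 38 genes against the GC content of the longest coding transcript, without offsets on the left and with the library trends over GC content and length taken off on the right. The slope on the left (Spearman's rho -0.86) is weaker on the right (-0.31), where Pdha1 and Sucla2 lie at 0.17 and 0.18.

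The same trend separated libraries within groups. Across all genes, rho between a gene's deviation from its mean over libraries and its GC content was 0.48 in Sham 1, 0.17 in Sham 2 and 0.06 in Sham 3. It was -0.07, 0.21 and 0.17 in SNL 1 to 3, and -0.14, -0.43 and -0.56 in CBD 1 to 3. CBD 2 and CBD 3 are also the libraries with the lowest Gapdh and Mdh2 and the highest Pdha1. Group and trend cannot be told apart where all libraries of a group lie on the same side, as the CBD libraries do.

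When the trends over GC content and length were taken off each library, most of the separations went with them. Against SNL, 4 of the 38 genes still had every CBD library below every SNL library (Fh1, Ldhb, Mpc2 and Suclg1), against 7.02% of all genes, and 0 had it above, against 5.1%. In SNL against sham, Fh1 was above without overlap (8.26% of all genes) and Eno1 and Pdk2 below (9.3%). Ldhb, Suclg1, Mpc1 and Pgam1 then overlapped between SNL and sham. In CBD against sham, Cs was above (6.0%) and Eno2 below (6.54%). The median log2 fold change of the 38 genes was then 0.03, -0.007 and 0.01 in SNL against sham, CBD against SNL and CBD against sham. Spearman's rho between fold change and GC content across them was then -0.39, 0.13 and -0.31 in the same order. In SNL against sham it was thus little changed from -0.43.

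Single genes differed in how far they moved. Ldhb in SNL against sham went from a log2 fold change of 0.45 to 0.37, Suclg1 from 0.24 to 0.17 and Mpc1 from 0.29 to 0.18. Pdk2 in CBD against sham went from -0.29 to -0.08, Aldoa from -0.38 to -0.17, Eno2 from -0.24 to -0.09 and Gapdh from -0.31 to -0.11. Pdha1 went from 0.29 to 0.17 and Sucla2 from 0.35 to 0.18. Against SNL, CBD values of Ldhb went from -0.43 to -0.25 and Gapdh from -0.39 to -0.14. Pdk2 in CBD against SNL went from -0.18 to 0.02. Of the 38 genes, 5, 11 and 11 changed sign in SNL against sham, CBD against SNL and CBD against sham.

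Beyond the 38 genes, 81 of 87 related genes passed the filter on low counts: other isozymes, glucose and lactate transporters, further cycle and pyruvate genes, succinate dehydrogenase, regulators and hypoxia-response genes. In edgeR 0 of the 81 passed the adjusted threshold in each comparison. At an unadjusted p under 0.05, 6 were higher and 9 lower in SNL against sham, beside 5.83% and 7.96% of all tested genes. The counts were 8 and 6 in CBD against SNL, beside 6.5% and 7.2%, and 8 and 4 in CBD against sham, beside 7.41% and 8.87%. DESeq2 called 0, 2 (Bsg and Esrra, both lower) and 3 (Ddit4, Gpd1 and Slc2a8, all lower) in the same order, beside 2.02%, 0.868% and 2.11% of all genes. The 4 succinate dehydrogenase genes, which join the cycle to the respiratory chain, all had positive values in SNL against sham, with log2 fold changes of 0.12 to 0.21.

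In SNL against sham, Pdpr, the regulatory subunit of the phosphatase that reactivates pyruvate dehydrogenase, stood at 28.4, 26.2 and 27.6 CPM in sham, 20.9, 23.1 and 19.2 in SNL, and 27.7, 25.0 and 26.8 in CBD. The SNL libraries were the lowest of all 9, with a log2 fold change of -0.38 over sham (SE 0.106, edgeR adjusted p = 0.231). Foxo1, a transcription factor under insulin control, stood at 41.7, 51.8 and 31.7 CPM in sham, 22.2, 27.9 and 32.1 in SNL, and 34.4, 40.1 and 40.2 in CBD. Sham 3 and SNL 3 overlapped, and the log2 fold change was -0.60 (SE 0.186, edgeR adjusted p = 0.247). Ndrg1, a hypoxia-inducible gene also abundant in oligodendrocytes, stood at 148, 134 and 173 CPM in sham, 194, 219 and 179 in SNL, and 188, 169.7 and 164 in CBD. SNL was above sham without overlap, with a log2 fold change of 0.38 (SE 0.124, edgeR adjusted p = 0.261), and the myelin markers had positive fold changes in the same comparison. The part of these markers in the Ndrg1 value was not tested.

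Of the genes with the smallest p in CBD against SNL, Esrra, a nuclear receptor of mitochondrial genes, stood at 64.7, 89.1 and 63.0 CPM in SNL and 54.8, 45.8 and 42.8 in CBD, beside 55.4, 59.3 and 61.5 in sham. The log2 fold change was -0.60 (SE 0.148, edgeR adjusted p = 0.306), and -0.35 with the trends taken off. Bsg, the chaperone of lactate transporters, stood at 464, 485 and 439 CPM in SNL and 399, 315 and 292 in CBD, beside 361, 386 and 374 in sham. It gave -0.46 (SE 0.125, edgeR adjusted p = 0.306), and -0.21 with the trends taken off. Slc2a8, an intracellular glucose transporter, stood at 24.2, 18.8 and 23.2 CPM in sham, 21.7, 23.2 and 18.6 in SNL and 16.5, 13.8 and 13.5 in CBD. CBD was below both groups without overlap, with log2 fold changes of -0.53 against SNL and -0.59 against sham (edgeR adjusted p = 0.306 and 0.213). With the trends taken off they were -0.28 and -0.26.

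In CBD against sham, Ddit4, an inhibitor of mTOR signalling induced by stress, stood at 64.3, 79.9 and 63.3 CPM in sham, 45.2, 55.7 and 50.8 in SNL, and 46.3, 24.8 and 29.2 in CBD. Both ligated groups were below sham in every library, and the log2 fold change of CBD was -1.05 (SE 0.209, edgeR adjusted p = 0.213). It passed the threshold in edgeR without CBD 1, at -1.36 (adjusted p = 0.0156). Gpd1, the cytosolic glycerol-3-phosphate dehydrogenase, stood at 130.3, 137 and 106 CPM in sham, 73.6, 99.1 and 89.9 in SNL, and 55.2, 84.9 and 86.5 in CBD. Both ligated groups were again below sham without overlap, with a log2 fold change of -0.72 for CBD (SE 0.184, edgeR adjusted p = 0.213). Over the alternative fits listed below, GC and length offsets among them, CBD against sham ran from -1.40 to -0.83 for Ddit4. For Gpd1 it ran from -0.83 to -0.50.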

How the data were processed

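Messenger RNA was measured in 9 libraries of mouse hippocampal tissue, 3 in each of 3 groups, made from 1.3 ug of total RNA with a SMARTER mRNA-seq kit, per the labels' protocols. The authors deposited a table of expected counts per gene, estimated with RSEM on the mouse build GRCm39 per the submitters' processing notes. The sources used here give no version, aligner or annotation. RSEM shares reads among the transcripts they fit. Counts were whole in every library for 18 of the 38 genes, so the other 20 hold some shared reads.

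Counts were rounded, filtered with filterByExpr and scaled by TMM. Groups were compared by the quasi-likelihood F test of edgeR (4.0.16, R 4.3.3) with 1 factor for group over 9 libraries and 6 residual degrees of freedom, with Benjamini-Hochberg adjustment over 17967 genes and a threshold of 0.05. SE is the log2 fold change over the root of F. CPM are TMM-scaled, with mean ± SD over 3 libraries, and the common biological coefficient of variation was 0.192. Isozyme ratios were log2(CPM + 0.5) differences, tested by exact permutation over libraries.

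The genes and lists were chosen with earlier results of these data known. All 38 genes are given, with per-library values for the 6 smallest p-values in each comparison and for the 3 smallest among related genes averaging at least 1 CPM. Values shown for other genes were chosen after they were seen. Transcript length and GC content came from the longest coding transcript in GENCODE vM21, on an older build than the files, for 98.2% of the tested genes. The trend offsets were splines with 4 degrees of freedom in each library. Promoters came from RefSeq on GRCm38.p6, with no entry for Idh3a.

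Alternatives were DESeq2 size factors, no filter, limma voom with sample weights (3.58.1), a minimum of 1 CPM in 3 libraries, the Wald test of DESeq2 (1.42.0), the 6 libraries compared alone, the replicate number as a block, GC and length offsets, each library left out, and the libraries with Pmch above 10 CPM left out. Offsets together with the block were chosen after seeing the data.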

Additional observations from a re-analysis of the deposited data

How the results depend on the processing

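In edgeR 0 genes passed in each comparison. In SNL against sham, 253 passed with no filter on low counts, 363 with DESeq2, 1 with voom and 1 without the libraries with Pmch above 10 CPM. In CBD against SNL the counts were 1, 156, 1132 and 2, and in CBD against sham 56, 380, 1051 and 20, with 1 when only the 6 libraries compared were fitted. Leaving out each library gave 0 to 8, 0 to 2 and 0 to 17 calls in the 3 comparisons, the most without CBD 1 in each. Of the 38 genes, voom called 4 in CBD against SNL and 3 in CBD against sham, and no other alternative called any. DESeq2 called 2 and 3 related genes there. The cause was not tested.

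The median log2 fold change of the 38 genes moved by more than the SD between libraries, 0.061, in 4 cases. Without the libraries with Pmch above 10 CPM it was 0.13 in SNL against sham and -0.18 in CBD against SNL, where SNL 3 is the lone SNL library and is assumed to vary like the others. In CBD against SNL it was -0.0067 with GC and length offsets and -0.0052 with offsets and the replicate block. Leaving out each library gave 0.01 to 0.08, -0.13 to -0.06 and -0.05 to 0.02, the nearest to 0 in the first 2 comparisons without SNL 3. Same-numbered libraries correlated at -0.27 to 0.19, and differently numbered ones at -0.27 to 0.31. With 3 libraries a group, these values show no sign of pairing by number but cannot exclude it. With the replicate block 0 genes passed, and the medians were 0.05, -0.09 and -0.02. The 27 fold changes chosen by the smallest p kept their direction in all 19 alternatives. The alternatives refit the same libraries, so this is not separate evidence. Of the 27, 13 passed the threshold in at least 1 alternative, most often with voom, and 14 in none. Voom called 0.00557%, 6.3% and 5.85% of all genes in SNL against sham, CBD against SNL and CBD against sham.

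Common variation of 0.192 and 3 libraries a group limit what can be called. Changes of the 38 genes were all under 1.5-fold in edgeR over the 9 libraries, and a missed threshold does not show equal levels. Ldhb over Ldha rests largely on SNL 2.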
